A study of Mus musculus with 8 samples.

Results

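The unfolded protein and amino acid stress module was defined as 35 named genes and was followed in mouse peritoneal macrophages, phagocytes taken from the lining of the abdomen, given the recombinant protein LECT2 (leukocyte cell-derived chemotaxin 2). The list was given by gene name: 16 belong to the ATF4 arm (transcription factors, amino acid enzymes and amino acid carriers) and 19 to the endoplasmic reticulum (ER) arm (chaperones, disulfide isomerases, degradation proteins and Xbp1). Each was read with the brightest probe matching one of its RefSeq transcripts. Of the 35 members, 34 were among the 26123 genes tested. Dnajb11, a cochaperone of the ER, was left out of every count of expression below, though not of the promoter search. Its probe was not well above background on any array in either channel. The other 34 included 33 that were above background in both channels on all 8 arrays, and Chac1, which was above it in the LECT2 channel on 7. No member spot was saturated.

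The comparison was between 4 groups of 2 arrays: LECT2 at 0.5 µg/ml (low dose) or 5 µg/ml (high dose), each for 3.5 h or 48 h. The early time is 3.5 h in the sample titles, which is used here, and 3 h in the channel labels. On every array RNA of LECT2-treated cells (Cy3) was hybridised against RNA of cells kept for the same time without LECT2 (Cy5), and all cells were in low-glucose medium with 20% fetal bovine serum. The replicates came from 2 independent experiments with different mice, whose strain, sex and age the labels do not give. No dye swap was made, so for a single transcript a dye effect and a LECT2 effect cannot be told apart against the control, whereas a constant dye effect drops out of differences between groups. The arrays of both doses at a time may also share their control RNA. Values are log2 ratios of LECT2 over control, so that 0 is no difference. The deposited values run the other way, and their sign was turned.

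Cells meet misfolded protein in the ER with the membrane sensors PERK, IRE1 and ATF6, and meet a lack of amino acids with the kinase GCN2. PERK and GCN2 phosphorylate the translation factor eIF2, which slows protein synthesis but lets ATF4 be made, and ATF4 switches on genes for making and importing amino acids and, if the stress lasts, the death-linked factor Ddit3 (CHOP). IRE1 splices the Xbp1 mRNA, and XBP1 and ATF6 raise chaperones and degradation proteins of the ER, which macrophages need as they secrete cytokines, complement and lysozyme.

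The promoters of both arms were set side by side because the module joins genes of different transcription factors. RefSeq promoters (250 bases before to 50 after the start, GRCm38.p6) were found for 32 of the 35 members, as 35 sequences, and 32851 promoters of 27025 genes were searched in the same way on both strands. The ER stress element (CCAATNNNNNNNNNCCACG, read by ATF6 with NF-Y and by XBP1) was found in 8 of the 17 ER arm promoters (47.1%: Calr, Canx, Creld2, Dnajc3, Hsp90b1, Hspa5, Pdia6 and Syvn1), in 0 of the 18 ATF4 arm promoters and in 0.119% of all promoters. Its core CCACG, part of the full element, was in 88.2% of ER arm promoters, 61.1% of ATF4 arm promoters and 32.8% of all. The C/EBP-ATF element (TGATGNAA, bound by ATF4 with a C/EBP factor) was in 4 of the 18 ATF4 arm promoters (22.2%: Asns, Atf3, Chac1 and Trib3), in 1 ER arm promoter (5.88%: Herpud1) and in 3.97% of all promoters. The XBP1 site TGACGTGG was in 0 of the members' promoters and in 0.676% of all. These matches describe letters in a window and are not measured binding sites.

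The stretches below show the full ER stress element, in capitals, with 20 bases on either side in the promoters of 4 ER arm members, those with the largest called changes in any comparison among the 8 that hold the element, read 5′ to 3′ on the gene's strand: Hspa5 at chr2:34772005-34772063 (+ strand), Calr at chr8:84847055-84847113 (- strand, element on the opposite strand), Canx at chr11:50325780-50325838 (- strand) and Pdia6 at chr12:17266471-17266529 (+ strand).
Hspa5: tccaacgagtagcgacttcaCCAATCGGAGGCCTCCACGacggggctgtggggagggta
Calr: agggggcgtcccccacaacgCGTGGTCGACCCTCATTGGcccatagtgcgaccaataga
Canx: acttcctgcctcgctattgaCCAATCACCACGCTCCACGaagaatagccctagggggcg
Pdia6: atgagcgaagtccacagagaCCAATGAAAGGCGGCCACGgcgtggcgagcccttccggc
The C/EBP-ATF element, also in capitals and here on the opposite strand in both, is shown for Atf3 of the ATF4 arm at chr1:191183416-191183463 (- strand) and for Herpud1, the ER arm member that holds it, at chr8:94386297-94386344 (+ strand).
Atf3: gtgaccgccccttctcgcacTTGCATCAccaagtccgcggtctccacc
Herpud1: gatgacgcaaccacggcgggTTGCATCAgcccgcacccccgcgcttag

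In the control channel all 9 macrophage markers with a probe were above background on all 8 arrays, and so were 8 of 8 B cell, 7 of 8 plasma cell and 9 of 11 T and NK cell markers, so detection alone does not tell macrophages from these cells. Across genes, the replicate arrays of a group correlated at r = 0.414 for the low dose and 0.722 for the high dose at 3.5 h, and at 0.352 and 0.621 at 48 h. The 4 columns of values at 48 h were equal, within 0.01, to the scanner's own ratio for 86.4% to 88.5% of probes, whereas those at 3.5 h were not, so the times may have been processed differently. For 7 of the 8 columns, the scanner file that matches best belongs by its record to a different sample. Replicate 1 of the low dose at 3.5 h matched its best file poorly (r = 0.782). The columns were used under their own labels. With the files as they are recorded, no module member passed the test in any comparison, and of all genes tested 0 passed at the high dose and 3.5 h.

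**Figure D1:**
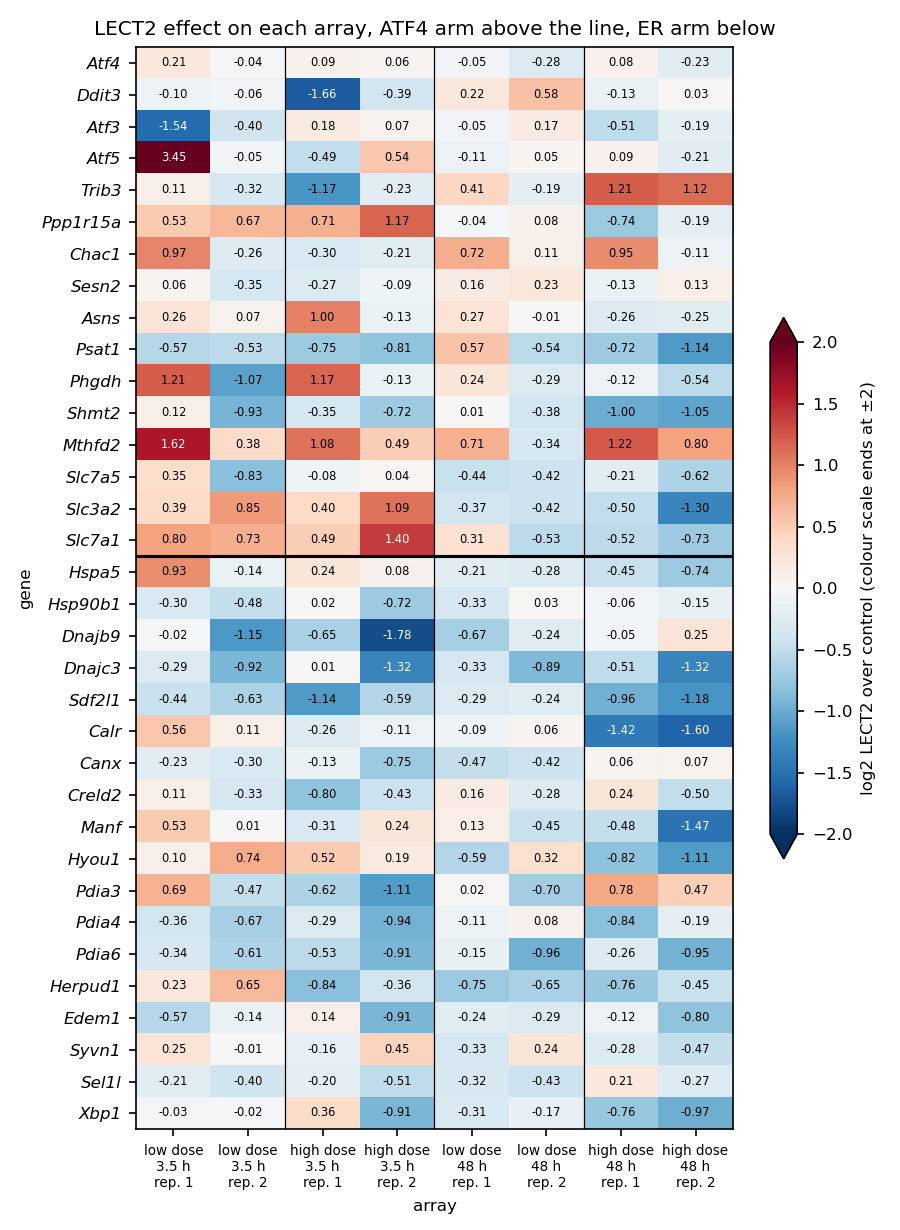
Heat map of the log2 ratio of LECT2 over control for the 34 members tested (rows) on each of the 8 arrays (columns, grouped by dose and time), with the ATF4 arm above the black line and the ER arm below. Red is higher and blue lower with LECT2; Atf5 on 1 array (3.45) lies beyond the end of the colour scale, and most ER arm cells at the high dose and 48 h are blue.

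At the high dose and 3.5 h, 3 of the 34 members passed the test (limma, Benjamini-Hochberg adjustment over all genes, adjusted p below 0.05): Ppp1r15a rose, and Dnajb9 and Sdf2l1 fell. That is 8.82% of members, where 21.9% of all genes tested passed (a difference in shares that was not tested). The members' median was -0.27 against -0.03 for all genes, and 22 of the 34 lay below 0. In limma 12 of the 34 had an unadjusted p below 0.05, where 9742 of the 26123 genes tested did. On both arrays 16 members were lower and 8 higher, where 36.9% of all genes were lower on both and 37.1% higher on both.

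Ppp1r15a (GADD34), the phosphatase subunit that removes the phosphate from eIF2 and so restarts translation, had log2 ratios of 0.71 and 1.17 on the high dose arrays at 3.5 h and of 0.53 and 0.67 on the low dose arrays. At 48 h it stood at -0.04 and 0.08 at the low dose and at -0.74 and -0.19 at the high dose. All 4 early arrays were above 0 and all 4 lay above the late ones. The high dose change at 3.5 h was 0.94 ± 0.23 (SE, n = 2, 1.92-fold, adjusted p = 0.0276), and the low dose value, 0.60 ± 0.23, did not pass (adjusted p = 0.188).

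Dnajb9 (ERdj4), a cochaperone that helps the chaperone BiP and damps IRE1, read -0.65 and -1.78 on the high dose arrays at 3.5 h and -0.02 and -1.15 on the low dose arrays. Its values at 48 h were -0.67 and -0.24 (low dose) and -0.05 and 0.25 (high dose). The replicates differed by over 1 log2 unit in both early groups, with replicate 2 the lower. The high dose fall was 1.21 ± 0.36 on the log2 scale (SE, n = 2, 2.32-fold, adjusted p = 0.0489). The gene's other probe gave -0.59 and -1.62 on the same arrays.

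Sdf2l1, an ER protein that keeps misfolded chains soluble as a partner of Dnajb11, was below 0 on all 8 arrays. It read -1.14 and -0.59 at the high dose and 3.5 h, -0.96 and -1.18 at the high dose and 48 h, -0.44 and -0.63 at the low dose and 3.5 h, and -0.29 and -0.24 at the low dose and 48 h. The 4 high dose values included the 3 lowest. It fell at the high dose at both times, by 0.87 ± 0.22 at 3.5 h (1.83-fold, adjusted p = 0.0309) and by 1.07 ± 0.22 at 48 h (2.1-fold, adjusted p = 0.0265), the one member called at both. The difference between the doses at 48 h, -0.80 ± 0.32, did not pass (adjusted p = 0.444).

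Ddit3, the death-linked factor CHOP, lay just outside the threshold at the high dose and 3.5 h, at -1.66 and -0.39 (mean -1.02 ± 0.31, adjusted p = 0.0513). It read -0.10 and -0.06 at the low dose and 3.5 h, 0.22 and 0.58 at the low dose and 48 h, and -0.13 and 0.03 at the high dose and 48 h. Its low value at the high dose came mainly from replicate 1. Slc7a1, a carrier of arginine and lysine, lay next to it in the other direction, at 0.49 and 1.40 (mean 0.95 ± 0.30, adjusted p = 0.0583).

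Atf4, the factor that gives its arm its name, lay between -0.28 and 0.21 on its brightest probe. The values of that probe were 0.21 and -0.04 (low dose) and 0.09 and 0.06 (high dose) at 3.5 h, and -0.05 and -0.28 (low dose) and 0.08 and -0.23 (high dose) at 48 h. The 95% interval of the high dose mean ran from -0.41 to 0.56 at 3.5 h and from -0.56 to 0.41 at 48 h. The gene's other probe read higher on several arrays: 0.43 and -0.29 (low dose) and 0.72 and 0.35 (high dose) at 3.5 h, and 0.31 and -0.10 (low dose) and 0.49 and -0.14 (high dose) at 48 h. The Atf4 value is therefore uncertain. ATF4 is controlled mainly at translation, which arrays do not measure.

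The remaining ATF4 arm members at the high dose and 3.5 h ranged widely. Among regulators, the pseudokinase Trib3, which restrains ATF4 and Akt, stood at -0.70 ± 0.29 (adjusted p = 0.122), and the transcription factors Atf3 and Atf5 at 0.13 ± 0.29 and 0.02 ± 0.69. Chac1, which breaks down glutathione, stood at -0.26 ± 0.37, and Sesn2, a leucine sensor that holds back mTORC1, at -0.18 ± 0.21. Of the enzymes, Mthfd2 of mitochondrial folate metabolism was at 0.78 ± 0.38, its partner Shmt2 at -0.54 ± 0.29, and asparagine synthetase (Asns) at 0.43 ± 0.29. In serine synthesis, Phgdh, the first enzyme, was at 0.52 ± 0.53 (1.17 and -0.13) and Psat1, the next, at -0.78 ± 0.29. The other Psat1 probe read 0.08 and -0.74 on these arrays, where the one used read -0.75 and -0.81. Slc3a2, the heavy chain that amino acid exchangers share, was at 0.75 ± 0.28 and Slc7a5, a light chain that pairs with it to import leucine, at -0.02 ± 0.30. The Slc7a5 value is uncertain, since the gene's dimmer probe read 0.94 and 0.77 on the high dose arrays at 3.5 h where the one used read -0.08 and 0.04.

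The ER arm at the high dose and 3.5 h lay mostly below 0, with 15 of 18 members negative and a median of -0.41. The disulfide isomerases, which form and reshuffle disulfide bonds, were all 3 negative: Pdia3 at -0.86 ± 0.33, Pdia6 at -0.72 ± 0.29 and Pdia4 at -0.61 ± 0.26, none past the adjusted threshold (the lowest adjusted p was 0.0998). The chaperone Hspa5 (BiP), the main sign of ER stress in most cells, was instead at 0.24 and 0.08 (mean 0.16 ± 0.28, 95% interval -0.49 to 0.81). Its nucleotide exchange factor Hyou1 was at 0.36 ± 0.29, and the ubiquitin ligase Syvn1 (HRD1) at 0.14 ± 0.25; these 3 were the ones above 0. Herpud1, a scaffold of the degradation complex, was at -0.60 ± 0.23 and its partners Edem1, which hands over glycoproteins, and Sel1l, the adaptor of Syvn1, at -0.38 ± 0.31 and -0.36 ± 0.22.

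**Figure D2:**
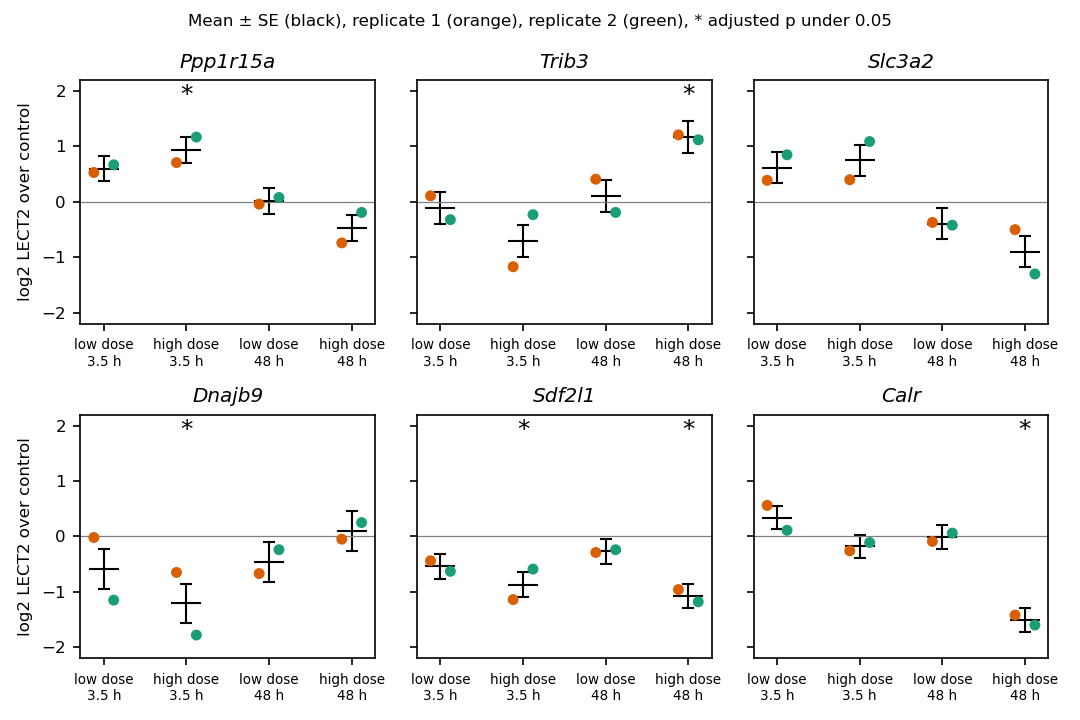
Log2 ratio of LECT2 over control (vertical axis) in the 4 groups (horizontal axis) for the 6 members called against control or between times, with each replicate as a point, the fitted mean as a black bar and its standard error as whiskers. Stars mark adjusted p under 0.05 against control: Ppp1r15a and Slc3a2 run from positive at 3.5 h to negative at 48 h at the high dose, and Trib3 the other way.

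At the high dose and 48 h, 3 of 34 members again passed the test (8.82%, where 11.2% of all genes tested did): Trib3 rose, and Calr and Sdf2l1 fell. The members' median was -0.40 against -0.01 for all genes, and 27 of 34 lay below 0. In limma 12 of the 34 had an unadjusted p below 0.05, where 7695 of the 26123 genes tested did. On both arrays 22 members were lower and 4 higher, where 35.9% of all genes were lower on both and 32.8% higher on both.

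Calr (calreticulin), the soluble chaperone that binds newly made glycoproteins and buffers ER calcium, read -1.42 and -1.60 at the high dose and 48 h. On the other 6 arrays it lay between -0.26 and 0.56: 0.56 and 0.11 at the low dose and -0.26 and -0.11 at the high dose at 3.5 h, and -0.09 and 0.06 at the low dose and 48 h. The late high dose arrays thus stood apart from all others. The fall was 1.51 ± 0.21 on the log2 scale (SE, n = 2, 2.86-fold, adjusted p = 0.00951), the largest called change of a member against control. Canx (calnexin), the membrane-bound relative of Calr, read 0.06 and 0.07 on the same arrays.

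Trib3 read 1.21 and 1.12 at the high dose and 48 h, and -1.17 and -0.23 at the high dose and 3.5 h. At the low dose it read 0.11 and -0.32 at 3.5 h and 0.41 and -0.19 at 48 h. Only the late high dose arrays were above 1. The rise was 1.17 ± 0.29 (SE, n = 2, 2.25-fold, adjusted p = 0.0425).

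Xbp1, the target of IRE1 and regulator of the ER arm, lay at -0.76 and -0.97 at the high dose and 48 h (mean -0.87 ± 0.30, adjusted p = 0.106). It read 0.36 and -0.91 at the high dose and 3.5 h, -0.03 and -0.02 at the low dose and 3.5 h, and -0.31 and -0.17 at the low dose and 48 h. The replicates disagreed in sign at the high dose and 3.5 h. The probe does not separate the spliced from the unspliced Xbp1 mRNA.

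Hspa5 read -0.45 and -0.74 at the high dose and 48 h (mean -0.60 ± 0.28, adjusted p = 0.202), -0.21 and -0.28 at the low dose and 48 h, and 0.93 and -0.14 at the low dose and 3.5 h. All 4 values at 48 h were below 0. Hyou1, at -0.97 ± 0.29 (adjusted p = 0.0717), Manf, a protective factor held and released by the ER, at -0.98 ± 0.31 (adjusted p = 0.0869), and Dnajc3 (p58IPK), a cochaperone of BiP, at -0.91 ± 0.37 (adjusted p = 0.153) lay below 0 on both arrays without passing. The ER HSP90 Hsp90b1, at -0.10 ± 0.25, and the disulfide protein Creld2, at -0.13 ± 0.27, were nearer 0. Pdia3 was at 0.62 ± 0.33, while Pdia4 and Pdia6 were at -0.52 ± 0.26 and -0.61 ± 0.29 (the other Pdia6 probe read 0.06 and -0.29).

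All 4 degradation members were below 0 at the high dose and 48 h, from -0.61 ± 0.23 for Herpud1 to -0.03 ± 0.22 for Sel1l, and none passed. In the ATF4 arm 12 of 16 members lay below 0. All 3 carriers did on their brightest probes (the other Slc7a5 probe read 0.79 and 0.23), with Slc3a2 at -0.50 and -1.30 (mean -0.90 ± 0.28, adjusted p = 0.0819), and so did Shmt2 (-1.02 ± 0.29, adjusted p = 0.0606) and Psat1 (-0.93 ± 0.29, adjusted p = 0.079). Mthfd2 stood on the other side at 1.22 and 0.80 (mean 1.01 ± 0.38, adjusted p = 0.122).

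These counts are small and depend on the processing, and so do the genes called. At 48 h Trib3 was not called by limma with matched processed signals (adjusted p = 0.0508) or centred columns (0.0549). Nor was it with no filter on dim probes (0.0704). At 3.5 h Ppp1r15a was not called with centred columns (0.76, adjusted p = 0.0664). Without the filter Dnajb9 and Sdf2l1 were not called at 3.5 h (adjusted p = 0.0771 and 0.0553). Calr and Sdf2l1 at 48 h stayed called in these settings. With the replicate number as a block, 5 members were called at the high dose and 3.5 h (Ddit3 and Pdia3 in addition) and 5 at the high dose and 48 h (Sdf2l1, Calr, Shmt2, Mthfd2 and Dnajc3, without Trib3). Of all 26123 genes, 6055 and 3417 were called with the block, against 5721 and 2935 without it. With replicate 1 left out 0 members were called in either group, and with replicate 2 left out 1 at 3.5 h (Ddit3) and 0 at 48 h. Over all genes fewer were also called at both times with either replicate left out. Markers of other cells were also called at the high dose, where 21.9% of all genes were at 3.5 h and 11.2% at 48 h. At 3.5 h 3 of 11 T and NK cell markers rose (median 0.63) and of 7 dendritic cell markers 3 rose and 2 fell (median 0.62). At 48 h 2 T and NK cell markers rose and 1 fell (median 0.52), and 1 dendritic cell marker rose and 1 fell (median 0.23). Of 3 red blood cell markers 2 rose at 3.5 h (median 1.32) and none was called at 48 h (median 0.14), and of 11 markers of mesothelium and fibroblasts 1 rose and 1 fell at 3.5 h (median -0.61) and 1 fell at 48 h (median -0.73). Of 6 neutrophil markers 1 rose at each time, at 48 h S100a8 (7.92-fold, adjusted p = 0.00568). Of 8 B cell markers 1 rose at 3.5 h (median 0.41) and none was called at 48 h (median -0.57), and none of 6 mast cell markers was called at either time. Their part in the members' values was not tested. Of the 7 plasma cell markers tested none was called at either time (medians -0.03 and 0.01), and of the 9 macrophage markers 1 rose and 2 fell at 3.5 h and 1 fell at 48 h.

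At the low dose no member passed the test at either time. At 3.5 h, 0 of 34 were called by limma, where 4.89% of all genes were, and the members' median was -0.06. An unadjusted p below 0.05 was reached by 6 members (Atf3, Sdf2l1, Ppp1r15a, Slc7a1, Mthfd2 and Atf5), where 5781 of the 26123 genes tested reached it. Atf5, a factor of the amino acid response, had the largest mean, 1.70 ± 0.69 (adjusted p = 0.203), but it came from 1 array: replicate 1 read 3.45 and replicate 2 -0.05. In the scanner file that best matches that column, the poorly matched one, Atf5 read 0.91. Atf3, a stress factor that curbs inflammatory genes, read -1.54 and -0.40 (mean -0.97 ± 0.29, adjusted p = 0.104). With replicate 2 left out, Atf3 and Atf5 were called, and with replicate 1 left out 0 members were.

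At 48 h and the low dose, 0 of 34 members were called by limma, where 0.172% of all genes were. An unadjusted p below 0.05 was reached by 1 member (Herpud1, -0.75 and -0.65, mean -0.70 ± 0.23, adjusted p = 0.366), where 2647 of the 26123 genes tested reached it. Every mean of the 18 ER arm members was nevertheless below 0, from -0.70 to -0.01, while the 16 ATF4 arm members had 9 above and 7 below. Individual arrays were mixed: 3 of the 18 ER arm members were above 0 on replicate 1 and 5 on replicate 2. Across all 34 members, 13 were lower on both arrays and 3 higher on both, where 29% of all genes were lower on both and 30% higher on both.

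The arms were then compared within each array, which sets genes of 1 hybridisation against each other. The median of the ATF4 arm was above that of the ER arm on all 8 arrays, by 0.05 to 0.63 on the log2 scale. The mean difference was 0.25 ± 0.13 (SD, n = 2) at the low dose and 0.44 ± 0.28 at the high dose at 3.5 h, and 0.27 ± 0.31 and 0.30 ± 0.14 at 48 h. No test was made of it, since the members were chosen with earlier results of these data known. The ER arm median was below 0 on all 8 arrays (-0.03 to -0.66), while the median of all genes stayed between -0.07 and 0.02. The ATF4 arm median was above 0 on 3 arrays and below on 5. A dye effect that differs between the probes of the arms cannot be told apart from this difference.

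**Figure D3:**
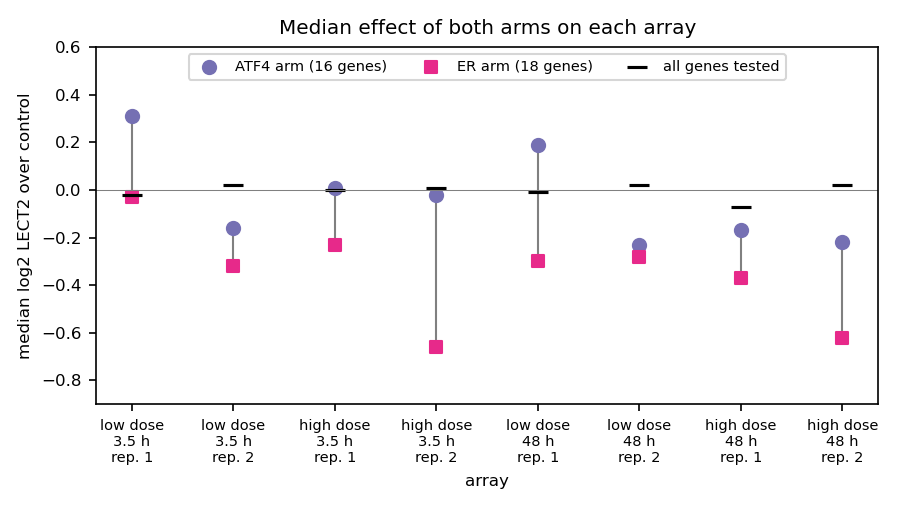
Median log2 ratio of LECT2 over control (vertical axis) of the 16 ATF4 arm genes (circles), the 18 ER arm genes (squares) and all genes tested (black bars) on each of the 8 arrays (horizontal axis). The circle lies above the square on every array, by 0.05 to 0.63, and every square lies below 0.

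Differences between doses and between times were tested directly, and a constant dye effect drops out of them. A dye effect that differs between slides does not drop out of the differences between times. In the matched files each time had a slide of its own, and the times may have been processed differently. Time, slide and processing therefore cannot be told apart in the differences between times. Between the doses no member was called at 3.5 h or at 48 h: 0 of 34 each, where 0% of all genes were called by limma. An unadjusted p below 0.05 was reached by 2 members (Herpud1 and Atf3) at 3.5 h and by 3 (Calr, Sdf2l1 and Trib3) at 48 h. Of the 26123 genes tested 2046 and 2745 reached it. For Calr the dose difference at 48 h was -1.50 ± 0.30 (adjusted p = 0.259). The median standard error of a difference was 0.40 over all genes.

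Between the times at the high dose, 4 of 34 members were called (11.8%, where 8.32% of all genes were). Trib3 was higher at 48 h than at 3.5 h by 1.87 ± 0.41 (adjusted p = 0.0373). Slc3a2 was lower by 1.65 ± 0.40 (difference -1.65, adjusted p = 0.048), Ppp1r15a by 1.40 ± 0.33 (-1.40, adjusted p = 0.044) and Calr by 1.33 ± 0.30 (-1.33, adjusted p = 0.0405). Slc3a2 read 0.40 and 1.09 at 3.5 h and -0.50 and -1.30 at 48 h, so its groups lay on opposite sides of 0. Slc7a1, the other carrier that stood above 0 early, had a difference of -1.57 ± 0.42 that lay just outside the threshold (adjusted p = 0.0606). With replicate 1 or replicate 2 left out, 0 members and 0 genes of the whole array were called in this difference. At the low dose 0 of 34 members were called by limma between times, where 0.0995% of all genes were. An unadjusted p below 0.05 was reached by 3 members (Herpud1, Slc3a2 and Atf3), where 2714 of the 26123 genes tested reached it.

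In cells without LECT2 the module was compared between 48 h and 3.5 h of culture, using the Cy5 signal of the scanner files that match the columns, averaging the 2 arrays that share a time and a replicate number, which gives 4 samples. Here 5 of 34 members rose and 0 fell (14.7%, where 8.15% of the 25811 genes tested were called). All 5 belong to the ER arm: Hspa5, Pdia4, Sel1l, Canx and Pdia6. The members' median was 0.33, and 22 of 34 lay above 0.

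Hspa5 had log2 control signals of 11.96 and 13.05 at 3.5 h and of 14.60 and 14.76 at 48 h. Both late samples were above both early ones, and the early samples differed by more than 1 log2 unit. The rise was 2.17 ± 0.36 (SE, n = 2 against 2, 4.5-fold, adjusted p = 0.0253). Pdia4 went from 12.33 and 12.21 to 13.83 and 13.64 (1.47 ± 0.19, adjusted p = 0.02), with the tightest replicates of the 5. Sel1l went from 10.60 and 10.47 to 11.55 and 11.99 (1.23 ± 0.22, adjusted p = 0.0301). Canx rose by 1.18 ± 0.21 (adjusted p = 0.0288) and Pdia6 by 1.07 ± 0.24 (adjusted p = 0.0483), and their late samples were likewise above their early ones.

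Of the 18 ER arm members 12 lay above 0 in untreated cells and 6 below. The 7 above 0 that did not pass were Pdia3 (1.33 ± 0.41, adjusted p = 0.0939), a mean above those of Sel1l, Canx and Pdia6, then Dnajb9 at 0.64 ± 0.42, Dnajc3 at 0.49 ± 0.23, Hsp90b1 at 0.36 ± 0.22, Xbp1 at 0.32 ± 0.20, Herpud1 at 0.31 ± 0.21 and Syvn1 at 0.16 ± 0.22. Of those below 0, Calr was at -0.46 ± 0.20 (adjusted p = 0.197), Creld2 at -0.41 ± 0.21, Edem1 at -0.25 ± 0.22, Manf at -0.19 ± 0.20, Hyou1 at -0.15 ± 0.22 and Sdf2l1 at -0.12 ± 0.26. In the ATF4 arm Atf5 (1.57 ± 0.36, adjusted p = 0.0506) and Atf4 (0.82 ± 0.21, adjusted p = 0.0614) lay just outside the threshold, and the 5 enzymes were all above 0, from 0.58 ± 0.27 for Psat1 to 0.92 ± 0.53 for Phgdh, without passing. Ddit3 was at -0.64 ± 0.31 (adjusted p = 0.24). With the replicate number as a block 8 members rose, Atf4, Atf5 and Pdia3 in addition, whereas scaling to the 75th percentile left Hspa5 alone.

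**Figure D4:**
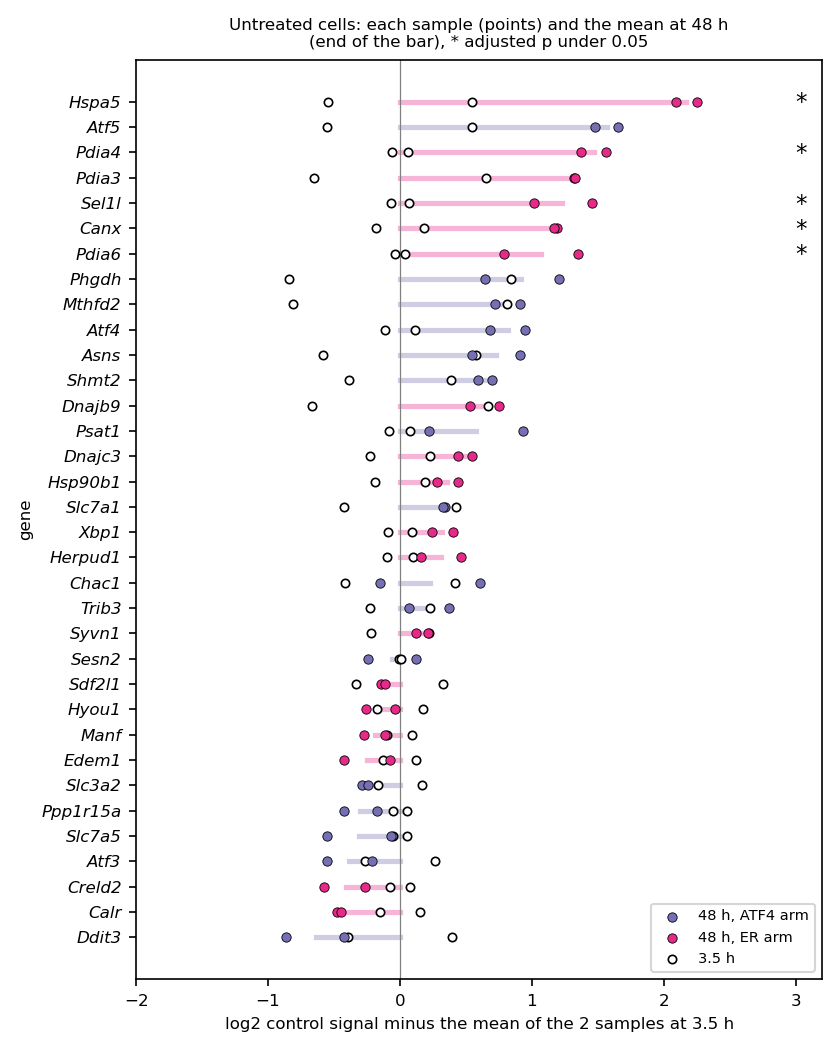
Log2 signal in untreated cells (horizontal axis) of each member (vertical axis) in the 4 control samples, each given relative to the mean of the 2 samples at 3.5 h: open points are 3.5 h, filled points 48 h (violet ATF4 arm, pink ER arm), bars end at the 48 h mean and stars mark adjusted p under 0.05. Hspa5 is at the top with a rise of 2.17, and for the 5 starred genes both late samples lie above both early ones.

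In the matched files each time had a slide of its own, so time in culture and slide cannot be told apart in this comparison. Markers of other cells moved with it, where 8.15% of all genes tested were called. Of 8 B cell markers 4 fell (median -0.94), and the list's mean log2 signal was 10.68 and 10.45 at 3.5 h and 9.76 and 9.79 at 48 h. The 6 mast cell markers tested gave 10.89 and 9.57 against 8.02 and 8.25 (2 fell), and the 7 plasma cell markers, cells with a large ER, 11.05 and 10.34 against 9.88 and 10.01 (none called, median -0.76). Of 11 T and NK cell markers 3 fell (median -0.66; mean signal 9.56 and 9.38 against 8.81 and 8.75), and of 3 red blood cell markers 1 (median -1.79; 11.47 and 9.46 against 8.36 and 8.44). The mean of the 11 markers of mesothelium and fibroblasts was instead higher late, 9.76 and 10.39 against 10.51 and 10.63 (1 rose, median 0.08). Of 6 dendritic cell markers 1 fell (median -0.42), and of 5 neutrophil markers 1 fell (median 0.10). The 9 macrophage markers gave 14.63 and 14.62 against 14.26 and 14.51 (1 fell). The part of these cells in the rise of the ER genes was not tested. In such bulk samples fewer cells of a type and less RNA per cell cannot be told apart.

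The sensors upstream of the module were looked at next, as 18 genes of the stress kinases, ER sensors and eIF2 control. Of these, 2 rose and 2 fell at the high dose and 3.5 h, where 21.9% of all genes were called. At the high dose and 48 h 3 rose and 1 fell, where 11.2% of all genes were called. At the high dose and 3.5 h, Eif2ak2 (PKR), the eIF2 kinase that answers double-stranded RNA, rose by 2.57 ± 0.33 (5.93-fold, adjusted p = 0.00294) and Ppp1r15b, the constitutive counterpart of Ppp1r15a, by 1.89 ± 0.29 (adjusted p = 0.00514). Eif2ak4 (GCN2) fell by 1.69 ± 0.42 (adjusted p = 0.0267) and Atf6 by 1.31 ± 0.25 (adjusted p = 0.0106). At the high dose and 48 h, Eif2ak2 (1.71 ± 0.33, adjusted p = 0.0219), Ppp1r15b (1.34 ± 0.29, adjusted p = 0.0293) and Ern1, which encodes IRE1 (1.21 ± 0.28, adjusted p = 0.0364), were higher and Atf6b, a relative of Atf6, was lower (-0.93 ± 0.22, adjusted p = 0.0389). In untreated cells Eif2ak3 (PERK) was higher at 48 h than at 3.5 h (1.33 ± 0.27, adjusted p = 0.0386) and Ern1 lower (-1.07 ± 0.21, adjusted p = 0.0342). The ratio of Ern1 at 48 h shares those control samples.

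In 7 companion lists of the same pathways, 144 genes in all, 10 rose and 18 fell at the high dose and 3.5 h (19.4%, where 21.9% of all genes were called) and 8 rose and 15 fell at the high dose and 48 h (16%, where 11.2% were). At the low dose 2 rose and 5 fell at 3.5 h (4.86%, where 4.89% were), and at 48 h 0 were called by limma, where 0.172% of all genes were. At the low dose and 48 h 14 of the 144 had an unadjusted p below 0.05, where 2647 of the 26123 genes tested did. Among 30 further ATF4 targets at the high dose and 3.5 h, 5 rose and 4 fell. The largest rise was that of Slc7a11, the cystine importer (3.82 ± 0.73, adjusted p = 0.0111), and the largest fall that of Sesn1, a relative of Sesn2 (-3.20 ± 0.33, adjusted p = 0.00155). At the high dose and 48 h 3 rose, led by Slc7a3, a carrier of arginine and lysine (2.21 ± 0.32, adjusted p = 0.0105), and 2 fell, led by Sesn1 (-2.05 ± 0.33, adjusted p = 0.0134). At the low dose and 3.5 h Nupr1, a stress-induced nuclear protein, rose alone (1.36 ± 0.21, adjusted p = 0.016), and 5 fell, led by Sesn1 (-2.80 ± 0.33, adjusted p = 0.00748).

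The aminoacyl-tRNA synthetases, which load amino acids onto tRNA and of which ATF4 controls several, gave 3 falls of 20 at the high dose at each time and 0 rises, against 21.9% of all genes called at 3.5 h and 11.2% at 48 h. Dars, for aspartate, had the largest at 3.5 h (-1.42 ± 0.22, adjusted p = 0.00526) and Farsb, for phenylalanine, at 48 h (-1.29 ± 0.27, adjusted p = 0.0263). Of 22 further folding genes 2 fell at the high dose and 3.5 h, led by Erp29 (-1.17 ± 0.23, adjusted p = 0.0123). At 48 h 2 rose, led by the oxidase Ero1a, which recharges the disulfide isomerases (2.11 ± 0.41, adjusted p = 0.0225), and 4 fell, led by the isomerase Pdia5 (-1.69 ± 0.36, adjusted p = 0.0275).

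At the high dose 21.9% of all genes were called at 3.5 h and 11.2% at 48 h. Of 27 genes of entry into the ER and glycosylation, 1 rose and 4 fell at the high dose and 3.5 h. Sec61g of the import channel rose (1.03 ± 0.24, adjusted p = 0.0235), and Stt3b, a catalytic subunit of the glycan transferase, fell most (-1.48 ± 0.22, adjusted p = 0.00464). At 48 h 1 fell, Ssr2 (-1.29 ± 0.26, adjusted p = 0.0238). Of 18 further degradation genes, Ube2j1, a ubiquitin-conjugating enzyme of the ER, rose (1.10 ± 0.21, adjusted p = 0.0106) and 2 fell at 3.5 h, led by Herpud2 (-1.36 ± 0.26, adjusted p = 0.0119), and 2 fell at 48 h, led by the ligase Rnf5 (-0.96 ± 0.25, adjusted p = 0.0494).

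Of 10 death genes linked to ER stress, 1 rose and 1 fell at the high dose and 3.5 h, where 21.9% of all genes were called. At the high dose and 48 h 1 rose (Ero1a) and 2 fell, where 11.2% of all genes were called. At the low dose and 3.5 h 1 rose, where 4.89% were. Bcl2l11 (BIM), which activates the mitochondrial death pathway and is a target of Ddit3, rose at 3.5 h at the low dose (1.58 ± 0.34, adjusted p = 0.0434) and at the high dose (1.75 ± 0.34, adjusted p = 0.0117), and fell at the high dose and 48 h (-1.47 ± 0.34, adjusted p = 0.0351). Its change between times at the high dose passed too (-3.22 ± 0.48, adjusted p = 0.0167). Dapk1, a death-associated kinase, fell at the high dose and 3.5 h (-1.87 ± 0.24, adjusted p = 0.00286), and Bok, a relative of BAX found at the ER, fell at the high dose and 48 h (-1.93 ± 0.42, adjusted p = 0.0294). Ddit3 mRNA read -1.66 and -0.39 on the high dose arrays at 3.5 h and -0.10 and -0.06 on the low dose arrays. CHOP protein was not measured, and a part of Ddit3 in the Bcl2l11 values was not tested.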

How the data were processed

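Per the file headers, 2-colour arrays were read with Agilent Feature Extraction 10.7.3.1, named also in the submitters' processing notes, and the deposited scanner files hold spot and background intensity per channel with a log10 ratio (Cy5 over Cy3) for each spot. The deposited table of values is in log2 units; how it was made is not given in the sources used here, and its scale, direction (Cy5 over Cy3) and centring (column medians -0.22 to 0.08) were taken from comparison with the scanner files. Its sign was turned to LECT2 over control.

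Each array holds 43020 non-control spots for 39429 probes, 26412 of them named by RefSeq accession through a GRCm38.p6 table (used for names and promoters; the array annotation is on mm9). A probe was kept (31587 in all) if either of its channels was well above background on 2 or more of the 8 arrays, and the brightest probe stood for its gene. On an array 56% to 71.2% of probes exceeded background in the LECT2 channel, and 63.1% to 82% in the control channel. The small number of arrays limits the precision.

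In R 4.3.3, with data.table version 1.17.8 for input, limma 3.58.1 fitted 1 mean per group over all 8 arrays (4 residual degrees of freedom), with Benjamini-Hochberg adjustment over 26123 genes at 0.05. Control signals (normexp, offset 50, then quantile scaling of Cy5) were compared between times in 4 averaged samples (2 residual degrees of freedom). The code was tested on simulated data. Deviations of same-numbered arrays correlated between groups at r = 0.05, 0.17, 0.20, 0.00, -0.06 and 0.47, the last between the doses at 48 h. The main fit had no replicate block, so a deviation shared by same-numbered arrays was not modelled in it. The fit with the block was run as an alternative. Figures were drawn with matplotlib 3.10.9.

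The members, the companion and marker lists and the tests were chosen with earlier results of these data known. All members are named; values on each array are given for members called against control and for Atf4, Ddit3, Xbp1 and Hspa5. Of each companion list the largest called change in each direction against control is named, and every called sensor. Alternatives covered the scanner files (matched or as recorded), centring, the filter on dim probes, the probe rule, the variance model, the replicate block, the arrays fitted and leaving out each replicate. Slc3a2, called between times, and other values quoted beside these were added after they were seen.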

Additional observations from a re-analysis of the deposited data

Results flagged for a closer look

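In 4 of 34 members the effect of the high dose differed between the times in limma's test of the difference itself, where 8.32% of all genes passed. The differences (48 h minus 3.5 h, log2) were Trib3 1.87, Slc3a2 -1.65, Ppp1r15a -1.40 and Calr -1.33, with adjusted p = 0.0373, 0.048, 0.044 and 0.0405. Time, slide and processing cannot be told apart in these differences.

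In other members both arrays of a group moved one way and both arrays of the group set against it the other way, but the test of the difference did not pass. The share of all genes with such a pattern was not counted. Depending on the group, 29% to 36.9% of all genes were lower on both arrays and 30% to 37.1% higher on both. Between times at the high dose these were Slc7a1 (-1.57, adjusted p = 0.0606), Pdia3 (1.49, adjusted p = 0.0899), Hyou1 (-1.32, adjusted p = 0.0871), Hspa5 (-0.76, adjusted p = 0.257), Canx (0.51, adjusted p = 0.341) and Atf3 (-0.48, adjusted p = 0.5). Between times at the low dose they were Herpud1 (-1.14, adjusted p = 0.284), Slc3a2 (-1.01, adjusted p = 0.443) and Ddit3 (0.48, adjusted p = 0.805). Between doses at 3.5 h they were Atf3 (1.10, adjusted p = 0.61), Herpud1 (-1.04, adjusted p = 0.593) and Calr (-0.52, adjusted p = 0.701), and at 48 h Canx (0.51, adjusted p = 0.626).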

How the results depend on the processing

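Counts of called members moved by more than 1.5 times under several alternatives (3, 3, 4 and 5 in the report for the high dose at 3.5 h, the high dose at 48 h, the difference between times at the high dose and the control comparison). With scanner files as recorded all 4 became 0, and over all genes tested 0, 1, 0 and 0 were called. Matched files with normexp and loess gave 7 at the high dose and 3.5 h, where 8136 of all 26123 genes were called (5721 in the report). They gave 2 at the low dose and 3.5 h (0 in the report, Slc7a5 and Ppp1r15a), where 2387 genes were called (1277 in the report). Matched processed signals gave 5 at the high dose and 3.5 h, where 6222 genes were called. With no filter on dim probes the high dose gave 1 at 3.5 h, where 4139 genes were called, and the difference between times 0. A strict filter gave 5 at each time at the high dose, where 6326 genes were called at 3.5 h and 3251 at 48 h. The number of genes tested differs between the filters. Centring the table left 1 in the difference between times (Trib3). Fitting only the arrays compared left 0 at the high dose and 3.5 h, where 3958 genes were called, and 1 in the difference between times. Scaling to the 75th percentile left 1 in the control comparison (Hspa5). The replicate block gave 5 at the high dose and 3.5 h, 5 at the high dose and 48 h, and 8 in the control comparison, and moved no other count of members by over 1.5 times. Of all genes it called 6055 at the high dose and 3.5 h and 3417 at the high dose and 48 h. Leaving out a replicate gave 0 to 2 at the low dose and 3.5 h, 0 to 1 at the high dose and 3.5 h, and 0 to 0 at the high dose and 48 h and between times. The lone array of a group is then assumed to vary like the others. Under files as recorded these values changed sign: Trib3 at the high dose and 48 h (-0.11) and between times (-0.43), Calr (0.67), Slc3a2 (0.53) and Ppp1r15a (0.31) between times, and Sel1l (-0.29), Canx (-0.01) and Pdia6 (-0.03) in untreated cells. The cause of these shifts was not tested. The low dose at 48 h, both dose differences and the difference between times at the low dose gave 0 under every alternative run. The excess of the ATF4 arm over the ER arm stayed above 0 with matched files, with means in place of medians and on each single array (0.16 to 0.33 and 0.24 to 0.63 at 3.5 h, 0.05 to 0.49 and 0.19 to 0.40 at 48 h, low dose first). A slide block was not run, since slide equals time under the matched files and replicate number under the recorded ones. The control comparison without a replicate has no residual degrees of freedom and was not tested.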
